A study of Mus musculus with 6 samples.

Results

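The mitochondrial genome is a small circle of DNA that the cell reads separately from its nuclear chromosomes. The genes described here are the rows of the deposited expression table whose mouse symbol begins with mt-. There were 17 of them among 22962 rows: 13 mRNAs, 2 ribosomal RNAs and 2 transfer RNAs. The annotation of the mouse mitochondrial genome (GENCODE M21 on GRCm38, the assembly that mm10 names) lists 37 genes, and the other 20, all transfer RNAs, are not analysed here. Membership went by name alone and no measured value entered the rule, but the rule was chosen with earlier results of these data known.

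The libraries were made from alveolar macrophages of C57BL/6 mice, with no genetic change stated. The bleomycin group had 3 libraries (replicates 1, 2 and 5), from cells collected 2 weeks after bleomycin, a drug that breaks DNA and is used to model lung fibrosis, was put into the trachea. The saline group had 3 libraries (replicates 1, 2 and 3), collected 2 weeks after saline was given by the same route. In both groups the cells were washed out of the lung, cleared of red cells and left on plates for 30 min with 10% serum. They were lysed if they had adhered, so the population is defined by adherence and not by sorting. The labels do not say whether the libraries came from separate mice, and p-values therefore speak only of the variation among these libraries, some of it perhaps technical. The design asks which transcripts differ between macrophages of bleomycin-treated and saline-treated lungs.

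Mitochondrial DNA encodes a few subunits of the respiratory chain and of ATP synthase, and the ribosomal and transfer RNAs needed to translate them inside the organelle. All other subunits, the RNA polymerase, the ribosomal proteins and the enzymes that cut and stabilise the RNA come from nuclear genes. Both strands are transcribed as long precursors that are cut at the transfer RNAs, and most of the products then receive a short poly(A) tail. Fragments of mitochondrial DNA have also been copied into the nuclear chromosomes during evolution, and a recent copy can match a mitochondrial gene base for base. Resident alveolar macrophages are known for their high oxidative metabolism and for taking up surfactant lipids.

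Such nuclear copies matter for what can be counted, so the sequences concerned are given first. Transcripts of 15 annotated nuclear pseudogenes matched a mitochondrial mRNA over at least 200 bases at 90% identity or more, and 14 of them were rows of the table. Of these, 7 lay side by side on the minus strand of chromosome 1, from 24611535 to 24616197 (a span of 4663 bases), in the same order as their mitochondrial counterparts. They matched the end of mt-Co1, then mt-Co2, mt-Atp6, mt-Co3, mt-Nd3, mt-Nd4l and the first 876 bases of mt-Nd4. Over the aligned bases the match was 100% for mt-Co2 (681 bases), mt-Atp6 (678), mt-Co3 (783), mt-Nd4l (294) and mt-Nd4 (876). It was 99.7% for mt-Nd3, with the single substitution T3C, and 99.8% for mt-Co1, with the single substitution A1066T. Positions in these tokens count from 1 at the 5′ end of the mitochondrial mRNA, and the mitochondrial base comes first. The starts of mt-Co2 and mt-Atp6 were 914 bases apart on chromosome 1 and 914 in the mitochondrial genome. This distance was the same in both places for 4 of the 5 neighbouring pairs from mt-Co2 to mt-Nd4, and for mt-Nd3 and mt-Nd4l it was 419 bases on chromosome 1 and 418 in the mitochondrial genome. The gene mt-Atp8, which has no annotated copy, lies between those starts.

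The first 60 bases of mt-Co2 (chrM:7013-7072, plus strand) are shown because they are the same in the chromosome 1 pseudogene Gm28661 (chr1:24615506-24615565, minus strand). The chromosome 2 pseudogene Gm13341 (chr2:22587903-22587962, minus strand) differs from them by C25T and G57A. Sequences are from GENCODE M21 on GRCm38, 5′ to 3′, and capitals mark the bases at which mt-Co2 and Gm13341 differ.
mt-Co2: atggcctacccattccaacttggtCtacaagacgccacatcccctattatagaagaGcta
Gm28661: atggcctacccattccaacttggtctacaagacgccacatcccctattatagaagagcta
Gm13341: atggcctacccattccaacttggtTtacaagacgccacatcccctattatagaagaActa

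The chromosome 1 copy aligned with only the last part of mt-Co1 and the first part of mt-Nd4. Both ends of the alignment are shown because the rest of each of these mRNAs lies outside it. Lower case marks bases aligned with the annotated copy and capitals mark bases of the mitochondrial gene outside the alignment. For mt-Co1 the alignment starts at base 10 of the annotated copy Gm29216, so the copy itself begins before the change of case. The mt-Co1 stretch is chrM:6360-6419 and the mt-Nd4 stretch is chrM:11013-11072, both on the plus strand.
mt-Co1: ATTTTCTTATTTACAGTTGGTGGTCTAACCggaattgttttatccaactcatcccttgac
mt-Nd4: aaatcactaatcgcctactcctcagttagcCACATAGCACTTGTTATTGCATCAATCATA

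The mitochondrial mRNAs fell into 2 classes of level, far apart. Values are normalized read counts, that is, reads of a gene divided by 1 size factor per library. Across the 6 libraries, 7 mRNAs (mt-Nd1, mt-Nd2, mt-Co1, mt-Nd4, mt-Nd5, mt-Nd6 and mt-Cytb) lay between 21608 and 388989 normalized read counts. The other 6 (mt-Co2, mt-Atp8, mt-Atp6, mt-Co3, mt-Nd3 and mt-Nd4l) lay between 0 and 45.8, apart from 1 value of 469 for mt-Co3 in bleomycin replicate 2. The plot of values by library shows the gap, which was present in all 6 libraries of both groups. The low mRNAs are the 5 matched over nearly their whole length by the chromosome 1 copy, together with mt-Atp8.

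**Figure D1:**
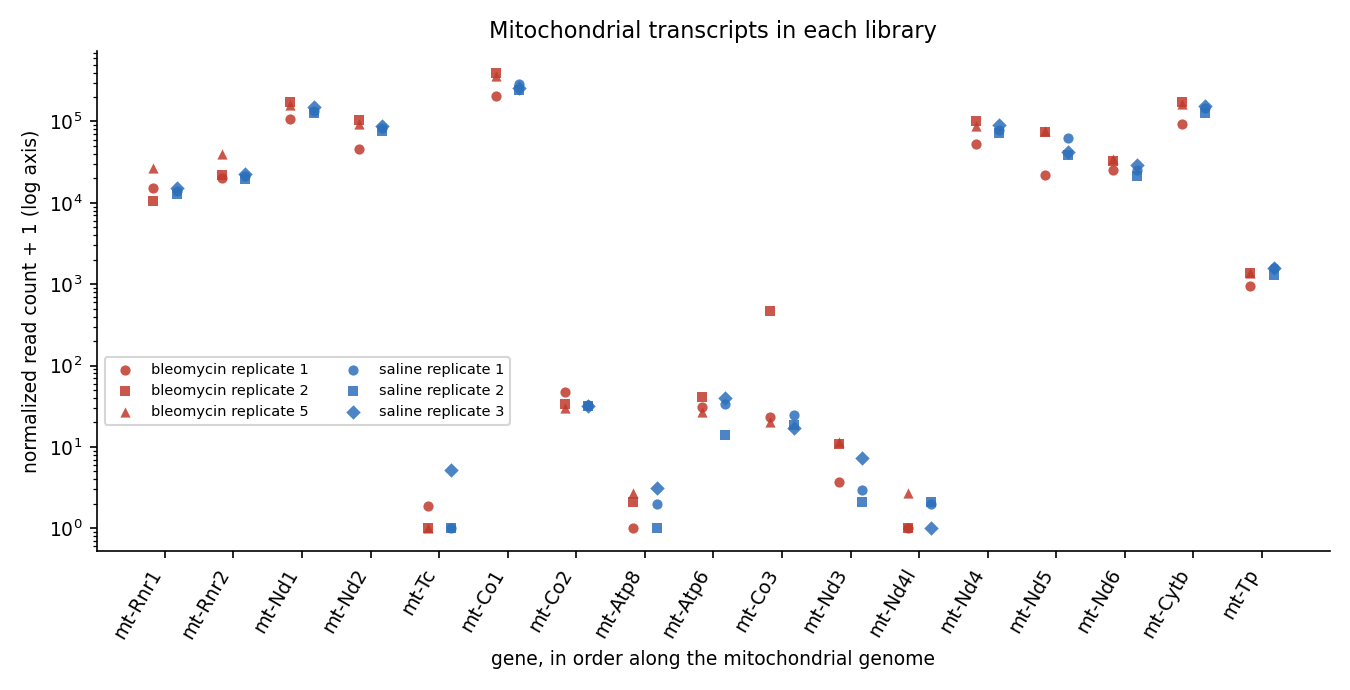
Normalized read count + 1 of the 17 mitochondrial genes (log axis) in each of the 3 bleomycin libraries (red, left) and 3 saline libraries (blue, right), with genes in order along the genome. The abundant mRNAs lie at 21608 or above and the low ones at 45.8 or below, except mt-Co3 at 469 in bleomycin replicate 2.

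Apart from mt-Atp8, the low mRNAs were those with nearly all of their sequence also in a nuclear transcript. Those with only part of it shared, mt-Nd4 and mt-Co1 among them, were abundant. Of all 50-base windows of each gene, the share found unchanged in some annotated nuclear transcript was 100% for mt-Co2, 99.9% for mt-Co3, 99.5% for mt-Atp6, 98.8% for mt-Nd4l and 98% for mt-Nd3. It was 62.2% for mt-Nd4, 51.1% for mt-Co1, 8.19% for mt-Nd2 and 7.61% for mt-Nd5. It was 0 for mt-Nd1, mt-Nd6, mt-Cytb and also for mt-Atp8, so mt-Atp8 is the exception among the low mRNAs. The annotation gives no transcript on chromosome 1 opposite mt-Atp8, and no genome sequence was used here, so whether its bases are also there was not tested. mt-Atp8 shares its last 43 bases with mt-Atp6, printed here in capitals because reads that lie in both genes have no single owner (chrM:7917-7969, plus strand, from 10 bases before the start of mt-Atp6 to the end of mt-Atp8).
mt-Atp8 and mt-Atp6: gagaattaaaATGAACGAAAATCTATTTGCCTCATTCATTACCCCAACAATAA

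**Figure D2:**
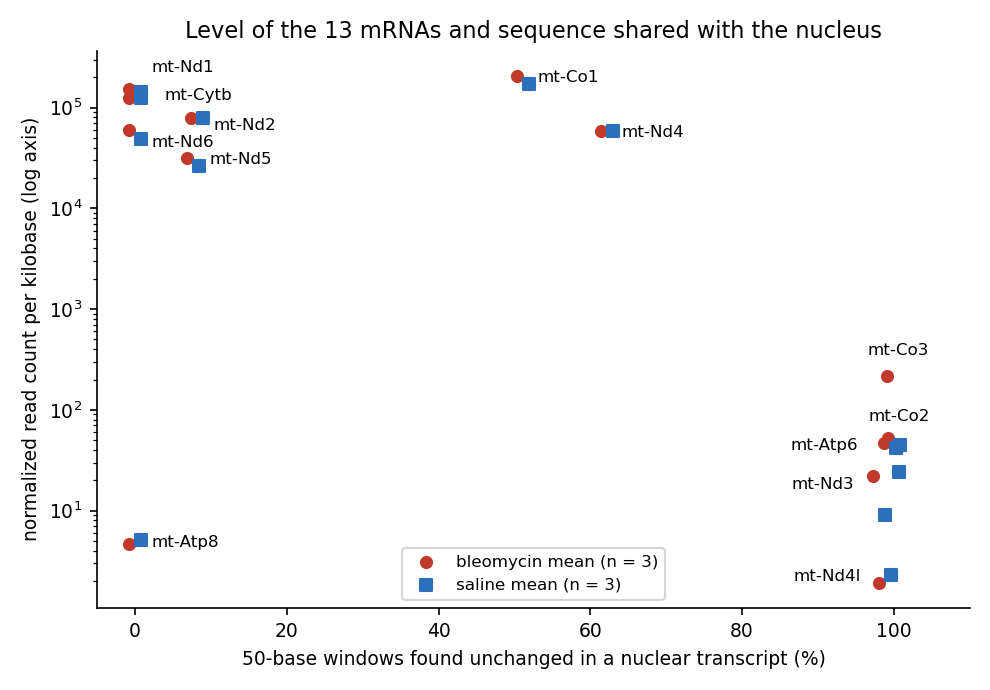
Mean normalized read count per kilobase of the 13 mitochondrial mRNAs (log axis) against the percentage of their 50-base windows found unchanged in an annotated nuclear transcript, for bleomycin (red circles) and saline (blue squares), n = 3 each, with points shifted slightly sideways. The 5 mRNAs with nearly all windows shared and mt-Atp8 lie far below the other 7.

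The pseudogenes themselves had reads. The mt-Atp6 copy Gm10925 had 186, 404 and 367 in bleomycin replicates 1, 2 and 5, against 309, 297 and 306 in saline replicates 1, 2 and 3, and the mt-Co2 copy Gm28661 had 181, 304 and 273 in the bleomycin libraries and 235, 243 and 239.7 in the saline libraries. In all 6 libraries Gm10925 and Gm28661 were higher than mt-Atp6 and mt-Co2, the mitochondrial genes whose sequence they repeat. The mt-Co3 copy Gm28437 had 74.6, 121 and 114 in the bleomycin libraries and 77.5, 80.4 and 92.3 in the saline libraries, above mt-Co3 in every library except bleomycin replicate 2. The copies of part of mt-Co1 (Gm29216) and of part of mt-Nd4 (Gm28439) reached at most 148, where mt-Co1 and mt-Nd4 were at 52272 or more. On chromosome 2, Gm13340 (97.6% identical to mt-Co1) ranged from 63 to 109, Gm13341 (95.9% identical to mt-Co2) from 41.3 to 68.1, and Gm13339 (96.7% identical to part of mt-Nd2) from 6.9 to 13.8. The chromosome 1 copies together came to 576, 1078 and 1023 in bleomycin replicates 1, 2 and 5, against 827, 835 and 878 in saline replicates 1, 2 and 3, and the groups overlapped (exact two-sided permutation test, p = 1). The read length, the handling of reads that match in several places and the strand setting of the counting were not stated in the labels or notes. Their part in the low values of mt-Co2, mt-Atp6, mt-Co3, mt-Nd3, mt-Nd4l and mt-Atp8 was not tested. These 6 values are therefore given as listed, and do not show how much of those mRNAs the cells held.

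The mean share of all reads counted for the mitochondrial genes did not differ between the groups beyond the spread of the libraries, and the bleomycin libraries spread more widely. The 6 mRNAs near 0, whose values do not show how much the cells held, added almost nothing to that share. A further 20 transfer RNAs had no row. As a share of the column sum, all 17 genes together made up 1.83, 3.42 and 3.26% in bleomycin replicates 1, 2 and 5, against 2.93, 2.45 and 2.78% in saline replicates 1, 2 and 3. Bleomycin replicate 1 was the lowest of the 6 libraries, and bleomycin replicates 2 and 5 were the highest. The means were 2.84% ± 0.875 in bleomycin and 2.72% ± 0.246 in saline (SD, n = 3 each), a difference of 0.115 percentage points (exact two-sided permutation test, p = 0.9). With 3 libraries against 3 this test cannot go below 0.1. From 649893 to 1210739 mitochondrial reads lay behind each bleomycin share and from 678141 to 877107 behind each saline share, so that 95% Wilson intervals reached 0.00662 percentage points either side at most. These intervals cover counting error only.

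By class, and again as shares of the column sum, the mRNAs held 1.71, 3.31 and 3.05% in the bleomycin libraries and 2.81, 2.34 and 2.65% in the saline libraries (p = 0.9 by the exact permutation test), and bleomycin replicate 1 was again the lowest library. The ribosomal RNAs held 0.112, 0.102 and 0.207% in the bleomycin libraries and 0.12, 0.108 and 0.122% in the saline libraries (exact p = 0.9). Here bleomycin replicate 5 alone stood high, and bleomycin replicates 1 and 2 were within or just below the saline range. The transfer RNAs, nearly all mt-Tp, held 0.00294, 0.00436 and 0.0043% in the bleomycin libraries and 0.0054, 0.00428 and 0.00513% in the saline libraries (exact p = 0.3), and the groups overlapped.

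**Figure D3:**
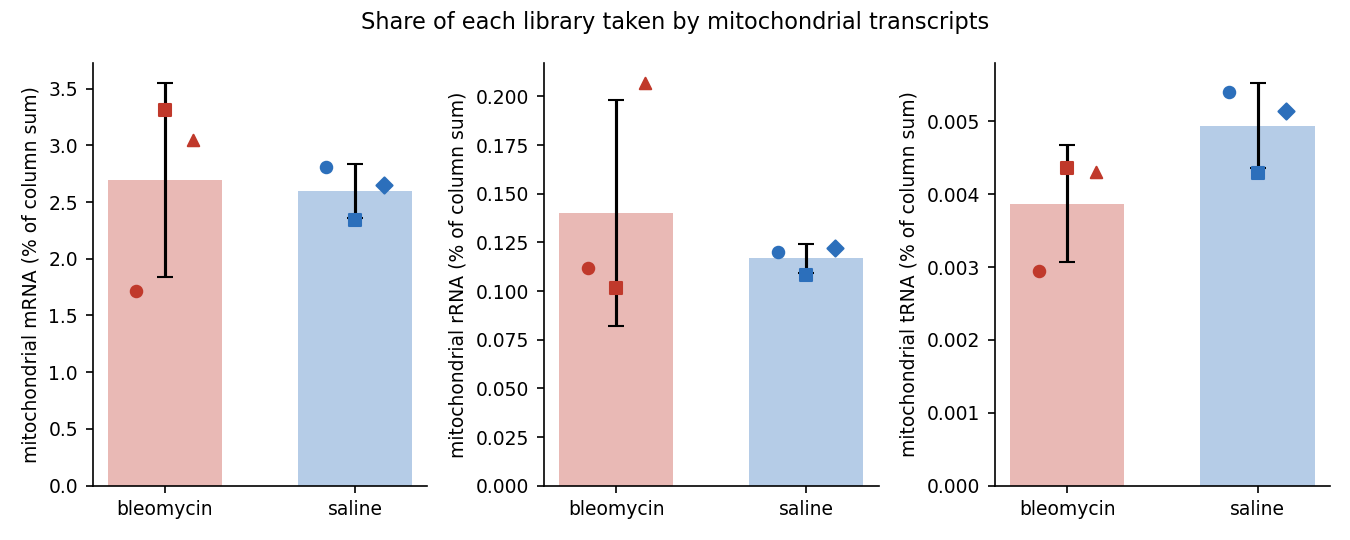
Share of the column sum (%) held by mitochondrial mRNA, rRNA and tRNA in bleomycin (red, left) and saline (blue, right). Bars are means, error bars are SD (n = 3 each) and points are libraries; the mRNA share spans 1.71% to 3.31% in bleomycin and 2.34% to 2.81% in saline.

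No mitochondrial gene passed the test between the groups. Of the 17, 13 had a value of 10 or more in 3 or more libraries and were tested together with all other genes (13512 in all) by limma on log2(value + 1), with Benjamini-Hochberg adjustment. At an adjusted p under 0.05, 0 of the 13 were called, where 13.7% of all tested genes were called, 9.76% higher and 3.9% lower. At an unadjusted p under 0.05 the count was also 0, and the recovered reads gave 0 calls as well by edgeR's quasi-likelihood test (13.5% of all genes called) and by DESeq2 (17.1%). Bleomycin and saline values overlapped in all 13, whereas 30.8% of all tested genes had groups that did not overlap. Log2 fold changes of bleomycin over saline were positive in 9 and negative in 4 (5 and 8 with quantile normalization), with a median of 0.19 beside -0.01 over all tested genes, and adjusted p ran from 0.349 (mt-Nd6) to 0.96 (mt-Nd4). The intervals were wide: for the 7 abundant mRNAs the 95% limits ranged from -0.92 to 1.12 on the log2 scale. With 3 libraries a group, changes within these limits could not be told from none. In bulk libraries, a different share of cells rich in mitochondria and a different amount of RNA per cell cannot be told apart.

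**Figure D4:**
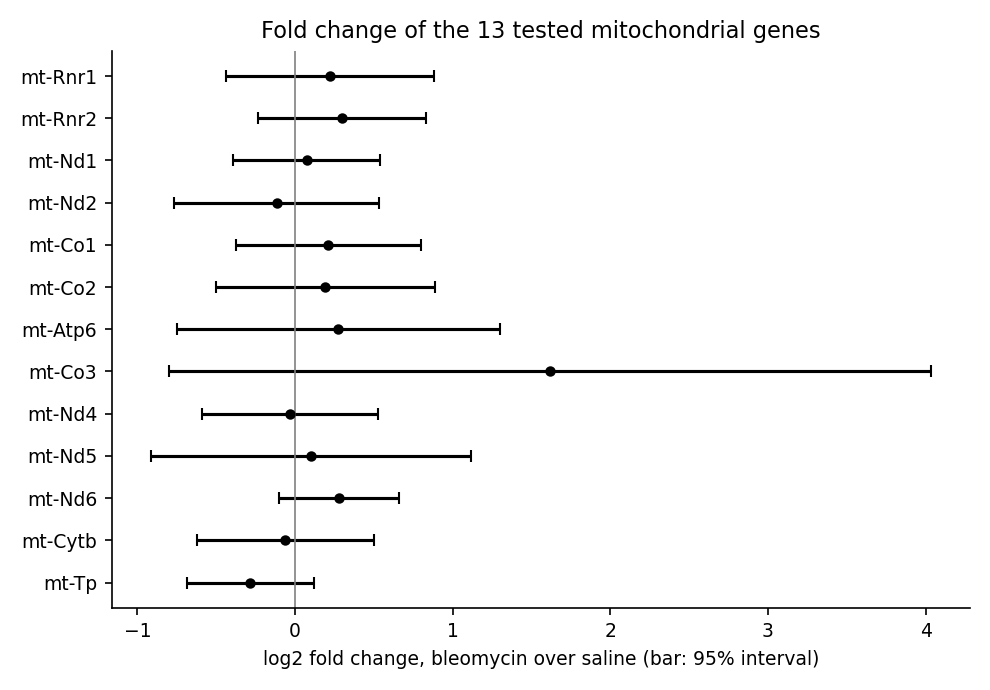
Log2 fold change, bleomycin over saline, of the 13 tested mitochondrial genes on the log2(value + 1) scale, with 95% intervals from limma (n = 3 libraries a group). Every interval includes 0, and that of mt-Co3 is the widest, from -0.80 to 4.03.

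Complex I, the NADH dehydrogenase through which electrons enter the chain, has 7 subunits encoded in the mitochondrial genome, of which 5 were abundant. Positions below are on the mitochondrial genome of GRCm38. mt-Nd1 (ENSMUSG00000064341, 2751 to 3707, plus strand) had 106253, 172865 and 161366 in bleomycin replicates 1, 2 and 5, against 135610, 125575 and 149313 in saline replicates 1, 2 and 3 (log2 0.07 ± 0.21, adjusted p = 0.871). Its share of the column sum was 0.333, 0.544 and 0.504% in the bleomycin libraries and 0.463, 0.418 and 0.484% in the saline libraries, and it ranked 14th of all rows by mean. mt-Nd2 (ENSMUSG00000064345, 3914 to 4951, plus strand), a subunit of the proton-pumping membrane arm, had 45723, 105160 and 92155 in the bleomycin libraries and 84019, 75598 and 88707 in the saline libraries (log2 -0.12 ± 0.29, adjusted p = 0.855), which as a share of the column sum was 0.143, 0.331 and 0.288% in the bleomycin libraries and 0.287, 0.252 and 0.287% in the saline libraries. On both measures and for both genes bleomycin replicate 1 lay below every saline library, while bleomycin replicates 2 and 5 lay above them.

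mt-Nd4 (ENSMUSG00000064363, 10167 to 11544, plus strand), another membrane-arm subunit, had 52272, 102813 and 88710 in the bleomycin libraries and 78248, 71470 and 90980 in the saline libraries (log2 -0.03 ± 0.25, adjusted p = 0.96), which as a share of the column sum was 0.164, 0.324 and 0.277% in the bleomycin libraries and 0.267, 0.238 and 0.295% in the saline libraries. Here bleomycin replicate 5 fell within the saline range, bleomycin replicate 2 above it and bleomycin replicate 1 below it. mt-Nd5 (ENSMUSG00000064367, 11742 to 13565, plus strand), the largest membrane-arm subunit, had 22047, 74943 and 77338 in the bleomycin libraries and 61867, 39185 and 42717 in the saline libraries (log2 0.10 ± 0.45, adjusted p = 0.924). Its share of the column sum was 0.0691, 0.236 and 0.242% in the bleomycin libraries and 0.211, 0.13 and 0.138% in the saline libraries. mt-Nd5 had the widest spread of the abundant mRNAs, with bleomycin replicates 2 and 5 more than 3 times as high as bleomycin replicate 1.

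mt-Nd6 (ENSMUSG00000064368, 13552 to 14070, minus strand) is the only protein gene on the other strand, where it overlaps the end of mt-Nd5 by 14 bases. It had 25184, 33036 and 34450 in the bleomycin libraries and 25136, 21608 and 29441 in the saline libraries (log2 0.28 ± 0.17, adjusted p = 0.349), which as a share of the column sum was 0.0789, 0.104 and 0.108% in the bleomycin libraries and 0.0857, 0.0719 and 0.0954% in the saline libraries. Bleomycin replicates 2 and 5 were above all saline libraries and bleomycin replicate 1 was inside their range, the only abundant mRNA for which it was not the lowest. With an unknown strand setting, the precursor of the opposite strand cannot be told apart from mt-Nd6 mRNA. mt-Nd3 (ENSMUSG00000064360, 9459 to 9806, plus strand), one of the 5 mRNAs inside the chromosome 1 copy, was listed at 2.69, 9.89 and 10.3 in the bleomycin libraries and 1.96, 1.09 and 6.36 in the saline libraries, and mt-Nd4l (ENSMUSG00000065947, 9877 to 10173, plus strand), which overlaps mt-Nd4 by 7 bases, at 0, 0 and 1.72 in the bleomycin libraries and 0.981, 1.09 and 0 in the saline libraries. Neither passed the filter on low values. A value of 2.59 to 3.3 stands for 3 reads, so that mt-Nd4l rested on 0 to 2 reads per library.

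Complex III passes electrons to cytochrome c, and mt-Cytb (cytochrome b; ENSMUSG00000064370, 14145 to 15288, plus strand) is its only mitochondrially encoded subunit. It had 91863, 174100 and 161808 in bleomycin replicates 1, 2 and 5, against 145929, 128315 and 156662 in saline replicates 1, 2 and 3 (log2 -0.06 ± 0.25, adjusted p = 0.918). Its share of the column sum was 0.288, 0.548 and 0.505% in the bleomycin libraries and 0.498, 0.427 and 0.508% in the saline libraries, and it ranked 13th of all rows. In normalized read counts bleomycin replicates 2 and 5 lay above every saline library and bleomycin replicate 1 below them, while by share bleomycin replicate 5 lay just below saline replicate 3.

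Complex IV, cytochrome c oxidase, reduces oxygen to water, and its catalytic core is mitochondrially encoded. mt-Co1 (ENSMUSG00000064351, 5328 to 6872, plus strand), which carries the oxygen-binding centre, had the highest mean among the mitochondrial genes as listed and ranked 5th of all rows. It had 203673, 388989 and 360098 in bleomycin replicates 1, 2 and 5, against 292352, 241173 and 259974 in saline replicates 1, 2 and 3 (log2 0.21 ± 0.26, adjusted p = 0.686). Its share of the column sum was 0.638, 1.22 and 1.12% in the bleomycin libraries and 0.997, 0.803 and 0.842% in the saline libraries. On both measures bleomycin replicate 1 was the lowest library and bleomycin replicates 2 and 5 were the highest.

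The other mitochondrially encoded core subunits of complex IV were listed near 0. mt-Co2 (ENSMUSG00000064354, 7013 to 7696, plus strand), which receives electrons from cytochrome c, had 45.8, 33 and 29.3 in the bleomycin libraries and 31.4, 30.4 and 30.8 in the saline libraries (log2 0.19 ± 0.31, adjusted p = 0.766). mt-Co3 (ENSMUSG00000064358, 8607 to 9390, plus strand) had 22.5, 469 and 19 in the bleomycin libraries and 23.5, 17.4 and 15.9 in the saline libraries (log2 1.62 ± 1.06, adjusted p = 0.405). The mt-Co3 value of 469 in bleomycin replicate 2 stood for 427 reads. In the other 5 libraries of both groups the normalized read count ranged from 15.9 to 23.5. The log2 difference of mt-Co3 was 0.14 without bleomycin replicate 2. In the same library the chromosome 1 copy Gm28437 had 121, beside 74.6 and 114 in the other bleomycin libraries, so it did not stand apart there. The shares of both genes of the column sum were at most 0.000144% for mt-Co2 and 0.00148% for mt-Co3.

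ATP synthase makes ATP from the proton gradient. mt-Atp6 (ENSMUSG00000064357, 7927 to 8607, plus strand), part of its proton channel, was listed at 29.6, 39.6 and 25.9 in the bleomycin libraries and 32.4, 13 and 39.2 in the saline libraries (log2 0.27 ± 0.45, adjusted p = 0.773), at most 0.000127% of the column sum. mt-Atp8 (ENSMUSG00000064356, 7766 to 7969, plus strand), a small subunit of the stalk, was listed at 0, 1.1 and 1.72 in the bleomycin libraries and 0.981, 0 and 2.12 in the saline libraries, which is 0 to 2 reads, and did not pass the filter. The saline libraries spanned a 3-fold range for mt-Atp6 and enclosed 2 of the 3 bleomycin libraries.

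The order of the bleomycin libraries was another one for the ribosomal RNAs. mt-Rnr1 (12S, the RNA of the small subunit of the mitochondrial ribosome; ENSMUSG00000064337, 70 to 1024, plus strand) had 15404, 10606 and 26945 in bleomycin replicates 1, 2 and 5, against 13983, 12912 and 15308 in saline replicates 1, 2 and 3 (log2 0.22 ± 0.29, adjusted p = 0.708), which as a share of the column sum was 0.0483, 0.0334 and 0.0841% in the bleomycin libraries and 0.0477, 0.043 and 0.0496% in the saline libraries. mt-Rnr2 (16S, the RNA of the large subunit; ENSMUSG00000064339, 1094 to 2675, plus strand) had 20335, 21689 and 39283 in the bleomycin libraries and 21239, 19594 and 22343 in the saline libraries (log2 0.30 ± 0.23, adjusted p = 0.495), which as a share of the column sum was 0.0637, 0.0683 and 0.123% in the bleomycin libraries and 0.0724, 0.0652 and 0.0724% in the saline libraries. Bleomycin replicate 5 was the highest library for both, at 0.94 and 0.90 above the saline mean on the log2 scale. Bleomycin replicate 1, the lowest in most mRNAs, was just above all saline libraries for mt-Rnr1 in normalized read counts but below saline replicate 3 by share, and bleomycin replicate 2 was the lowest library for mt-Rnr1. Without bleomycin replicate 5 the log2 differences were -0.13 for mt-Rnr1 and -0.0019 for mt-Rnr2.

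Of the 2 transfer RNAs, mt-Tp (proline; ENSMUSG00000064372, 15356 to 15422, minus strand) had 938, 1384 and 1378 in bleomycin replicates 1, 2 and 5, against 1584, 1287 and 1580 in saline replicates 1, 2 and 3 (log2 -0.28 ± 0.18, adjusted p = 0.381), which as a share of the column sum was 0.00294, 0.00436 and 0.0043% in the bleomycin libraries and 0.0054, 0.00428 and 0.00512% in the saline libraries. Bleomycin replicate 1 was the lowest and bleomycin replicates 2 and 5 lay inside the saline range. mt-Tc (cysteine; ENSMUSG00000064349, 5192 to 5257, minus strand) had reads in 1 bleomycin and 1 saline library, with a highest value of 4.24 in saline replicate 3, and did not pass the filter. Both genes lie on the minus strand and are of nearly the same length. With an unknown strand setting, reads from the precursor of the opposite strand cannot be told apart from reads of these transfer RNAs. Their whole sequences (chrM:15356-15422 and chrM:5192-5257, as DNA letters) are shown because mt-Tp had 938 or more in every library while mt-Tc had almost none.
mt-Tp: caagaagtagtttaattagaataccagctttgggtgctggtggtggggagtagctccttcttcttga
mt-Tc: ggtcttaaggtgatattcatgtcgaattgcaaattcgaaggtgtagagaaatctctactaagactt

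Levels of different genes were compared per kilobase of gene. In normalized read counts per kilobase, mt-Co1 averaged 205558 ± 64533 in bleomycin and 171197 ± 16756 in saline (SD, n = 3 each). mt-Nd1 averaged 153425 in bleomycin and 142981 in saline, and mt-Cytb averaged 124642 in bleomycin and 125556 in saline. Within each of the 6 libraries mt-Co1 was above mt-Nd1, and mt-Nd1 above mt-Cytb. mt-Nd2 followed with 78047 in bleomycin and 79744 in saline. Below its mean came mt-Nd6 and mt-Nd4 in bleomycin (59519 ± 9618 and 58973 ± 18926) and in saline (48930 ± 7559 and 58224 ± 7188). mt-Nd6 was above mt-Nd4 in 2 of the 3 bleomycin libraries and in 0 of the 3 saline libraries, and above mt-Nd2 in bleomycin replicate 1 alone. mt-Nd5 was the lowest of the 7, at 31858 in bleomycin and 26273 in saline. By group mean both ribosomal RNAs were lower per kilobase than every abundant mRNA, although in bleomycin replicate 1 both were above mt-Nd5. mt-Rnr1 averaged 18483 in bleomycin and 14730 in saline. mt-Rnr2 stood at 17132 in bleomycin and 13311 in saline. How ribosomal RNA and molecules without a long poly(A) tail were treated when the libraries were made is not given in the labels. Nuclear RNAs known to lack such a tail summed to 4987, 4289 and 4889 in the bleomycin libraries and 2484, 3463 and 3525 in the saline libraries, and limma and edgeR called 0 and DESeq2 1 of the 2 that could be tested. Nuclear-retained RNAs summed to 27906, 22342 and 30885 in the bleomycin libraries and 36634, 34382 and 39373 in the saline libraries, and 1 of the 3 tested, Neat1, fell by limma, with 1 of 3 also called by edgeR and by DESeq2. Over all tested genes limma called 13.7%, with 3.9% lower, edgeR called 13.5% and DESeq2 17.1%. For mt-Co1 and mt-Nd4 the length used is that of the whole gene, including the stretch inside the nuclear copy. The place of mt-Nd4 in the order depended on this choice. With only the 50-base windows not found in a nuclear transcript counted as length, mt-Nd4 averaged 161882 per kilobase in bleomycin and 159826 in saline. By group mean that was above mt-Nd1 (161705 and 150697), mt-Cytb (130219 and 131174), mt-Nd2 (89221 and 91162) and mt-Nd6 (65724 and 54031). mt-Co1 was still the highest (434455 and 361833).

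The spread among bleomycin libraries was the main feature of the abundant transcripts. For the 10 genes averaging 1000 or more, the SD of log2(value + 1) within the bleomycin group had a median of 0.51, beside 0.15 over 5085 nuclear genes at that level, and all 10 lay above that nuclear median. Within the saline group the median SD was 0.14, beside 0.16 over the same nuclear genes, and 4 of 10 lay above. Bleomycin replicate 1 was the lowest of all 6 libraries in 6 of the 7 abundant mRNAs, by as much as -1.12 from the saline mean for mt-Nd5 on the log2 scale and by -0.86 for mt-Nd2. In 6 of the 7, bleomycin replicates 2 and 5 were both above every saline library in normalized read counts. Most of these genes share a precursor, and all share a library, so they are not independent observations.

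**Figure D5:**
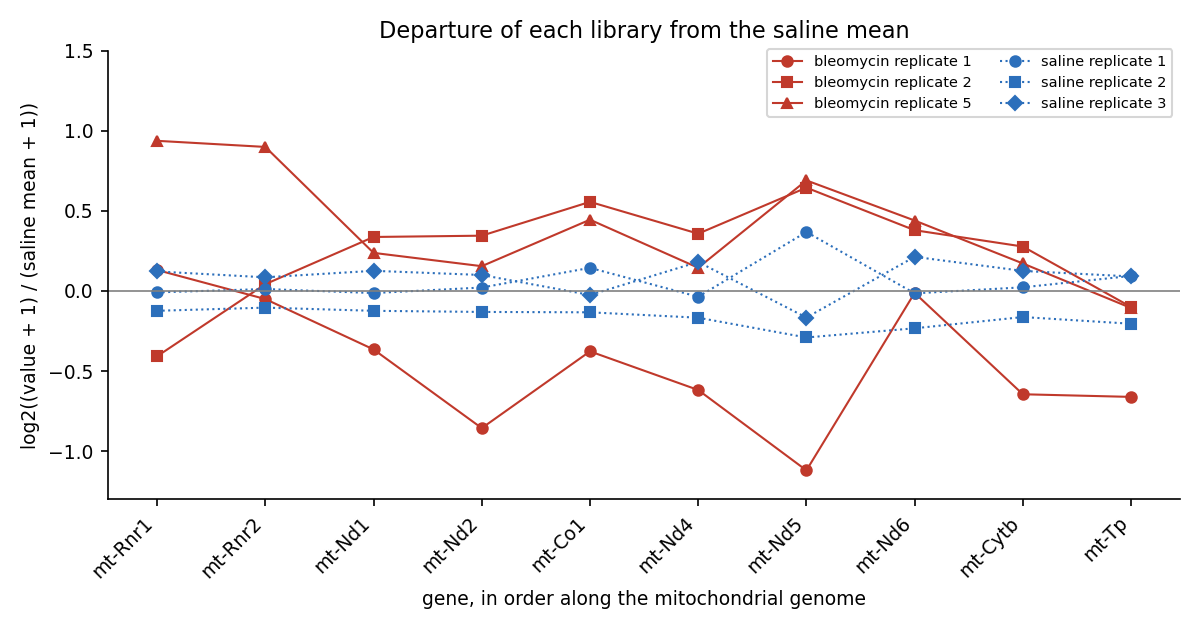
Log2 of each library's value + 1 over the saline mean + 1, for the 10 mitochondrial genes averaging 1000 or more, in bleomycin replicates 1, 2 and 5 (red) and saline replicates 1, 2 and 3 (blue). Bleomycin replicate 1 runs below 0 for most mRNAs, to -1.12 at mt-Nd5, and bleomycin replicate 5 reaches 0.94 at mt-Rnr1.

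Without bleomycin replicate 1, 12 of the 13 tested genes had a positive log2 fold change, still with 0 called beside 12.9% of all genes in that fit. The smallest adjusted p was then 0.0615, for mt-Nd5 (log2 0.70), and mt-Co1 had a log2 fold change of 0.51 (adjusted p = 0.109). Without bleomycin replicate 5 only 5 of the 13 were positive. The share of the column sum differed by 0.618 percentage points without bleomycin replicate 1, by -0.177 without bleomycin replicate 2 and by -0.097 without bleomycin replicate 5, so its direction rested on which bleomycin library was left out. The exact permutation p over these was 0.1 to 0.9, and 2 libraries against 3 cannot give less than 0.1.

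Other measures moved with these libraries. Among nuclear genes at the same level, those with an exon length under 1500 bases (264 genes) had a median log2 departure from the saline mean of 0.32, -0.23 and -0.18 in bleomycin replicates 1, 2 and 5, against -0.28, 0.02 and 0.21 in saline replicates 1, 2 and 3. Those with an exon length over 4000 bases (3086 genes) had -0.10, 0.01 and 0.01 in the bleomycin libraries and 0.07, -0.03 and -0.05 in the saline libraries. The listed alveolar macrophage markers were detected (13 of 13), and 5 of them fell, beside 3.9% of all tested genes called lower, with sums of 596739, 537659 and 491811 in the bleomycin libraries and 853367, 712849 and 794675 in the saline libraries. Of the markers of other cells, the counts that rose stand beside 9.76% of all tested genes called higher. Monocyte markers, of which 4 of 5 tested rose, summed to 63586, 115978 and 144669 in the bleomycin libraries and 57631, 37642 and 31515 in the saline libraries, and so were higher in bleomycin replicates 2 and 5, the libraries with the most mitochondrial mRNA, than in bleomycin replicate 1. B cell markers, of which both tested rose, summed to 84.4, 1045 and 691 in the bleomycin libraries and 20.6, 16.3 and 22.3 in the saline libraries. Of 12 T cell markers 11 rose and 1, Cd2, fell, and their sum, most of it Cd2, was 10994, 8170 and 7986 in the bleomycin libraries and 12853, 13167 and 15600 in the saline libraries. Of 7 epithelial markers 4 rose and 1, Epcam, fell, and their sum was 4827, 4411 and 4568 in the bleomycin libraries and 6943, 6694 and 5809 in the saline libraries. Of the rest, 4 of 6 dendritic, 3 of 5 neutrophil and 2 of 5 fibroblast markers rose. Fibroblast markers, which include collagens, summed to 849, 219 and 669 in the bleomycin libraries and 35.3, 58.7 and 321 in the saline libraries. Without bleomycin replicate 1, 2 T cell, 1 B cell, 3 dendritic and 0 fibroblast markers were called higher, beside 8.46% of all genes in that fit. The counts for macrophage, monocyte, neutrophil and epithelial markers did not change. None of the listed markers in the table was at 0 in all bleomycin libraries, while 1 neutrophil, 2 B cell and 1 fibroblast marker were at 0 in all saline libraries. The part of cell make-up and of gene length in the spread of mitochondrial transcripts was not tested. Library totals were 28916201 to 37147983 reads in bleomycin and 27654799 to 29899133 in saline.

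Ratios among mitochondrial transcripts do not depend on the size factors. In them the mitochondrial mRNA is the sum of the values as listed, to which the 6 mRNAs near 0 added almost nothing. The ratio of the mRNA sum to the rRNA sum was 15.3, 32.6 and 14.7 in bleomycin replicates 1, 2 and 5, against 23.4, 21.6 and 21.7 in saline replicates 1, 2 and 3. The saline libraries were nearly alike and the bleomycin libraries lay on both sides of them (log2 difference -0.19, exact two-sided permutation p = 0.6). The ratio of mt-Rnr2 to mt-Rnr1, which come from 1 precursor, was 1.32, 2.04 and 1.46 in the bleomycin libraries and 1.52, 1.52 and 1.46 in the saline libraries (exact p = 1 on the log2 ratio), with bleomycin replicate 2 apart from the rest. mt-Nd6, from the other strand, had a share of the mitochondrial mRNA of 4.6, 3.14 and 3.53% in the bleomycin libraries and 3.05, 3.07 and 3.6% in the saline libraries (exact p = 0.3 on the log2 ratio to the other mRNAs). mt-Nd5 had a share of 4.03, 7.12 and 7.92% in the bleomycin libraries and 7.51, 5.57 and 5.22% in the saline libraries, with bleomycin replicate 1 below every other library.

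The share of mt-Co1 in the mitochondrial mRNA as listed was 37.2, 37 and 36.9% in the bleomycin libraries and 35.5, 34.3 and 31.8% in the saline libraries. The bleomycin libraries were close together and above all saline libraries, a pattern picked out after its values were seen. Taken as a share of all mitochondrial reads, mt-Co1 was also higher without overlap, and mt-Nd2, mt-Cytb and mt-Tp were lower without overlap, while the other 6 of the 10 abundant genes overlapped. Groups that do not overlap were common, since 30.8% of all tested genes had them in normalized read counts. Of these reads mt-Co1 held 34.9, 35.8 and 34.5% in the bleomycin libraries and 34, 32.7 and 30.3% in the saline libraries. mt-Cytb held 15.7, 16 and 15.5% in the bleomycin libraries and 17, 17.4 and 18.3% in the saline libraries, and mt-Nd2 held 7.83, 9.68 and 8.83% in the bleomycin libraries and 9.77, 10.3 and 10.3% in the saline libraries. These proportions add up to a fixed total, so a higher share of one gene lowers the rest, and no test is given for them.

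None of the nuclear partners of the mitochondrial subunits passed the test. Among the nuclear subunits tested, limma called 0 of 36 in complex I, 0 of 9 in complex III, 0 of 11 in complex IV and 0 of 17 in ATP synthase, and 0 of 4 in complex II, which has no mitochondrially encoded subunit. Of all tested genes limma called 13.7%. Median log2 fold changes were 0.03 in complex I, 0.04 in complex II, 0.06 in complex III, -0.02 in complex IV and -0.04 in ATP synthase, beside -0.01 over all genes. The smallest p by limma in complex I was that of Ndufa10 (log2 -0.25, adjusted p = 0.189), in complex III that of Uqcrc2, a core subunit (log2 -0.33, adjusted p = 0.0611), and in ATP synthase that of Atp5b, the catalytic beta subunit (log2 -0.31, adjusted p = 0.153). In complex II it was that of Sdhb (log2 0.28, adjusted p = 0.279) and in complex IV that of Ndufa4 (log2 -0.50, adjusted p = 0.201). Log2 fold changes were positive in 20 of 36 genes of complex I, 3 of 4 of complex II and 5 of 9 of complex III. They were positive in 4 of 11 genes of complex IV and 8 of 17 of ATP synthase. At an unadjusted p under 0.05 there was 1 gene each in complex I, complex III and ATP synthase, edgeR called 0, and DESeq2 called 1, Uqcrc2, as lower (adjusted p = 0.0243), beside 5.69% of all genes that DESeq2 called lower. The ratio of the mitochondrial mRNA sum, as listed, to the sum of these 77 nuclear genes was 1.76, 4.81 and 4.32 in bleomycin replicates 1, 2 and 5, against 3.7, 2.76 and 2.83 in saline replicates 1, 2 and 3. Bleomycin replicate 1 was the lowest and bleomycin replicates 2 and 5 the highest (log2 difference 0.11, exact two-sided permutation p = 0.9).

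The genes that transcribe, process and translate mitochondrial RNA were mostly uncalled, with small negative medians in most lists. Limma called 0 of 16 genes of mitochondrial transcription (median log2 -0.08), 0 of 16 of DNA replication and maintenance (0.06), 0 of 38 of RNA processing and decay (-0.13), 0 of 15 translation factors (-0.11), 0 of 20 aminoacyl-tRNA synthetases (-0.17) and 0 of 18 general mitochondrial proteins (-0.17), beside 13.7% of all tested genes. At an unadjusted p under 0.05 these lists had 1, 1, 1, 2, 2 and 3 genes in the same order. edgeR called none of them, and DESeq2 called 1 each in RNA processing, translation factors and general mitochondrial proteins, all lower. Over all tested genes edgeR called 13.5%, and DESeq2 called 5.69% lower. The genes with the smallest p in these lists are given with limma's adjusted p. Nrf1, a transcription factor for nuclear respiratory genes, had a log2 fold change of -0.33 (adjusted p = 0.185), the topoisomerase Top1mt -0.50 (adjusted p = 0.113) and Tbrg4 of the FASTK family -0.37 (adjusted p = 0.0577). Ptcd3, which binds the mitochondrial ribosome, had -0.44 (adjusted p = 0.0604), the valyl-tRNA synthetase Vars2 -0.42 (adjusted p = 0.112) and the prohibitin Phb2 -0.44 (adjusted p = 0.0637). Tufm, the mitochondrial elongation factor Tu, had a log2 fold change of -0.35 (adjusted p = 0.0891). Twnk, of DNA replication and maintenance, went the other way with 0.38 (adjusted p = 0.339). Positive values numbered 4 of 16 in transcription, 9 of 16 in replication and maintenance and 8 of 38 in RNA processing and decay. They numbered 5 of 15 in translation factors, 3 of 20 in aminoacyl-tRNA synthetases and 2 of 18 in general mitochondrial proteins.

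Among 78 mitochondrial ribosomal proteins, the partners of mt-Rnr1 and mt-Rnr2, 2 fell and 0 rose, which is 2 genes beside 3.9% lower among all genes. The median log2 fold change was -0.11, and 15 of 78 values were positive. Mrps5 of the small subunit (ENSMUSG00000027374, chromosome 2, 127587222 to 127606829) had 609.9, 521 and 576 in bleomycin replicates 1, 2 and 5, against 750.1, 852 and 862 in saline replicates 1, 2 and 3 (log2 -0.53 ± 0.13, adjusted p = 0.0303 by limma). Mrpl38 of the large subunit (ENSMUSG00000020775, chromosome 11, 116131817 to 116138868) had 1075, 868 and 810.3 in the bleomycin libraries and 1161, 1847 and 1449 in the saline libraries (log2 -0.68 ± 0.19, adjusted p = 0.0474 by limma). In both genes every bleomycin library was below every saline library. Both calls were lost when bleomycin replicate 2, bleomycin replicate 5, saline replicate 2 or saline replicate 3 was left out, with adjusted p up to 0.177 for Mrps5 and 0.202 for Mrpl38. Without bleomycin replicate 1 the calls among all 277 tested nuclear genes of these lists and the respiratory complexes grew to 10, all lower, beside 4.43% of all genes called lower in that fit, and 5 of the 10 were mitochondrial ribosomal proteins.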

How the data were processed

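Gene expression was measured by RNA sequencing of total RNA in 3 bleomycin and 3 saline libraries. Per the submitters' processing notes, the tools named are DESeq2, HTSeq 0.6.0, STAR 2.5.2b and bcl2fastq 2.18.0.12, with the build mm10; settings, annotation release, strand and treatment of multiply matching reads were not given in the sources. What the authors deposited is a normalized signal. In every library 100% of values were a whole number of reads times a constant (within 0.05 of a read), so they are read counts divided by 1 size factor, and reads were recovered on that basis, 27654799 to 37147983 per library. The table held no row at 0 in every library, and symbols were found for 22873 of 22962 identifiers.

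Genes reaching a value of 10 in 3 or more libraries were tested with limma 3.58.1 (R 4.3.3) on log2(value + 1), two-sided, with an intensity trend and no covariate. On this scale the fold changes of low genes come out too small. edgeR 4.0.16 and DESeq2 1.42.0 on the recovered reads called 1821 and 2313 of 13512 genes, beside 1846 by limma. Sums, shares and ratios were compared by exact permutation tests. Nuclear copies were sought by aligning mitochondrial transcripts to nuclear transcripts of GENCODE M21 (at least 200 bases, 90% identity), because no genome was used.

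The members and gene lists were chosen with earlier results of these data known. Every mitochondrial gene is accounted for; of the nuclear lists, called genes or those with the smallest p were named, as far as they help the account, and of the nuclear copies those with a mean of at least 10. Other settings tried were other pseudocounts (0.5, 5) and filters (none, 50), other scalings and variance settings, edgeR, DESeq2, the replicate number as a block, and single libraries left out. Adding the chromosome 1 copies to the mitochondrial sum was chosen after the data were seen. The replicate numbers 1 and 2 occur in both groups, but nothing in the labels ties same-numbered samples together.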

Additional observations from a re-analysis of the deposited data

How the results depend on the processing

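With 3 libraries a group, and bleomycin replicate 1 apart from the other bleomycin libraries, only large changes could be seen, and the 6 mRNAs near 0 rest on few reads or on sequence shared with the nucleus. No tested mitochondrial gene was called under any setting except with the replicate block, where 1, mt-Co3, was called higher (log2 2.31, adjusted p = 0.0332). That fit rests on replicates 1 and 2 of each group, and so on the single high value in bleomycin replicate 2. The deviations of same-numbered samples had correlations of -0.20 for number 1 and 0.024 for number 2. Pairs with different numbers ran from -0.17 to 0.23, so these correlations cannot show whether same-numbered samples share more than a number. Over all genes the block called 194 lower, beside 527 without it.

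Over all settings tried, 22 log2 fold changes of the 13 genes had the other sign and 221 kept sign and side of the threshold. With the block the log2 fold change was -0.072 for mt-Rnr1 and -0.28 for mt-Nd5, and the difference in share of the column sum was -0.0689 percentage points for all 17 genes, -0.0603 for mRNA and -0.00734 for rRNA, with -0.14 for the log2 ratio of mitochondrial to nuclear respiratory chain mRNA. With quantile normalization, which moved the median of all genes to -0.10, log2 fold changes were -0.27 for mt-Nd1, -0.23 for mt-Co1, -0.24 for mt-Co2 and -0.16 for mt-Atp6. Rescaling to the column sum without mitochondrial genes, which moved that median to -0.09, gave -0.0099 for mt-Nd1, and edgeR and DESeq2 gave 0.016 and 0.019 for mt-Nd4. The cause of these changes of sign was not tested.

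Leaving out each library in turn, log2 fold changes ran from -0.13 to 0.54 for mt-Rnr1, -0.0019 to 0.47 for mt-Rnr2, -0.060 to 0.29 for mt-Nd1, -0.35 to 0.25 for mt-Nd2, -0.19 to 0.57 for mt-Atp6, -0.23 to 0.26 for mt-Nd4, -0.21 to 0.70 for mt-Nd5 and -0.23 to 0.23 for mt-Cytb. The difference in share ran from -0.177 to 0.618 percentage points for all genes, -0.218 to 0.581 for mRNA and -0.00996 to 0.0426 for rRNA. The log2 ratios ran from -0.57 to 0.0071 for mRNA to rRNA, -0.11 to 0.20 for mt-Rnr2 to mt-Rnr1 and -0.15 to 0.57 for mitochondrial to nuclear mRNA. Over all genes, calls ran from 502 to 1173 higher and from 162 to 576 lower. Quantile normalization gave 1114 higher and 752 lower, beside 1319 and 527, and rescaling to the column sum 1173 and 781.

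Of the 277 nuclear genes of the lists, 2 were called lower. The count was 1 with a minimum of 50 and 1 with TMM rescaling, 4 with quantile normalization, 8 after rescaling to the column sum, 0 without the trend, 7 by DESeq2, 0 with the block, and 0 to 10 without single libraries. Adding the chromosome 1 copies left the difference in share at 0.115 percentage points.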
